A study of Homo sapiens with 2 samples.

Results

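The 8 genes described here encode the core enzymes of polyamine synthesis (ODC1, AMD1, SRM and SMS), the antizyme system that controls ODC1 (OAZ1, OAZ2 and AZIN1) and the acetyltransferase that starts polyamine breakdown (SAT1). They were taken by gene name from a list of the pathway. All 8 were among the 10145 genes listed for at least 1 of the libraries, 8 of 8204 for ZC3H7A and 7 of 9159 for ZC3H7B. SRM had no row in the ZC3H7B library.

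Polyamines are small positively charged molecules that bind RNA and are needed for growth and translation. ODC1 makes putrescine from ornithine, AMD1 supplies the aminopropyl groups by decarboxylating S-adenosylmethionine, and SRM and SMS use these to build spermidine and spermine. The pathway is controlled to an unusual degree at the level of translation. Antizyme is made only when the ribosome shifts frame on its messenger RNA, and the AMD1 message carries an upstream reading frame that responds to polyamines. Messages of this pathway are therefore of interest for RNA-binding proteins, here in a series whose title concerns codon-dependent control of translation and stability.

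The assay was PAR-CLIP, photoactivatable-ribonucleoside crosslinking with immunoprecipitation, in which a protein is crosslinked to RNA that carries 4-thiouridine and the recovered fragments are sequenced. Flag/HA-tagged ZC3H7A or Flag/HA-tagged ZC3H7B, CCCH zinc finger proteins, was overexpressed in HEK293 cells, a human embryonic kidney line, from an inducible construct. Both groups received 1 µg/mL doxycycline for 24 h and 100 µM 4-thiouridine for 16 h before irradiation at 365 nm. The growth protocol also names a Flp-In T-REx derivative of the line, made for insertion of a transgene at a defined site, and no untagged or input library was analysed here.

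Each protein had 1 library, so there was no replicate check and no test between the proteins, and every ratio below compares a pair of libraries. Per gene, the tables give clusters (groups of overlapping reads), their summed reads and distinct reads, and how many of them fall in each transcript region. On genes, the ZC3H7A library held 3779662 reads made of 300342 distinct reads in 51808 clusters, and the ZC3H7B library 2409465 reads made of 1212989 distinct reads in 99805 clusters. A distinct read was counted 12.6 times on average for ZC3H7A and 1.99 times for ZC3H7B. The transcript of each tagged protein held more of the reads in its own library, 2.19% against 0.00656% for ZC3H7A and 0.156% against 0.0360% for ZC3H7B. All intervals are exact 95% intervals that cover counting error only, and copies made by PCR make those on reads too narrow. Intervals of ratios in mean reads per cluster take the numbers of clusters as fixed. They leave out the counting error of the clusters and are too narrow for that reason too. Sums are not per transcript length, and the transcripts' own abundance was not analysed here, so levels of different genes are not ranked.

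Together the 8 genes held 12959 reads, or 0.343% of gene reads (0.337 to 0.349%), for ZC3H7A. For ZC3H7B 7 of them held 7856 reads, or 0.326% (0.319 to 0.333%). AMD1 and SAT1 made up 67.1% of these reads for ZC3H7A and 60.4% for ZC3H7B. The near-equal totals hid opposite differences within the list. SAT1, OAZ1 and SMS had more reads relative to the median gene for ZC3H7A, and no member lay beyond 2-fold towards the ZC3H7B library.

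**Figure D1:**
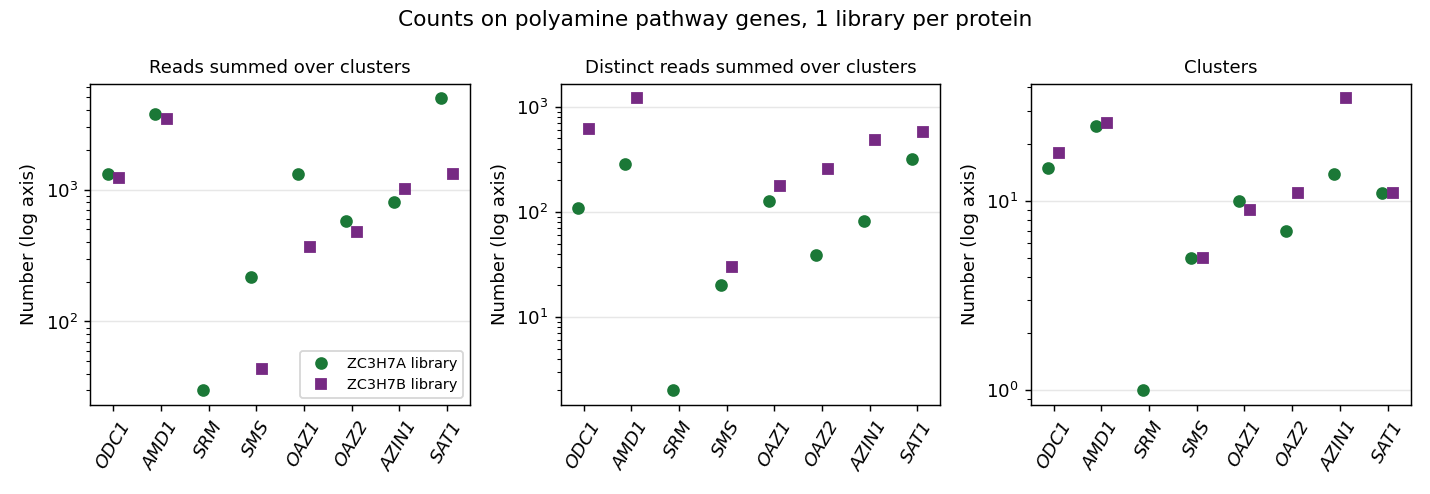
Reads, distinct reads and clusters on each gene (vertical log axes), with 1 point per library and no error bars because each protein had 1 library. By reads, SAT1 stood at 4932 and 1313 and OAZ1 at 1324 and 368, whereas by clusters SAT1 had 11 in both libraries and AZIN1 had 14 and 35.

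Ratios are log2 values of ZC3H7B over ZC3H7A reads, set so that the median was 0 over the 7168 genes with a row in both tables and at least 20 reads summed. A gene is called higher for a protein if its whole interval lay beyond 2-fold. Of the 7 members compared, 3 were higher for ZC3H7A and 0 for ZC3H7B. Over all genes compared, 18.0% were higher for ZC3H7A and 18.2% for ZC3H7B. With 7 genes, a count of 3 is described and not read as particular to the pathway. The median of the members was 0.20, against 0 for all genes, and their range ran from -1.81 to 0.82.

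ODC1 encodes ornithine decarboxylase, the first and rate-limiting enzyme, which is degraded once antizyme binds it. It had 1308 reads in 15 clusters for ZC3H7A and 1223 reads in 18 clusters for ZC3H7B. Scaled to 1000000 gene reads (RPM), these are 346 RPM (328 to 365) and 508 RPM (480 to 537). Its log2 ratio was 0.40 (0.28 to 0.51), inside 2-fold, and with distinct reads (110 and 615) it was 0.43 (0.13 to 0.73). ODC1 therefore stood slightly to the ZC3H7B side of the median gene on both counts of reads. Because ZC3H7B clusters were generally lighter (12.3 reads per cluster in the median gene, against 38.6 for ZC3H7A), its 67.9 reads per cluster there gave a larger ratio per cluster, 1.11 (0.99 to 1.22).

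AMD1 encodes S-adenosylmethionine decarboxylase. It had 3769 reads in 25 clusters for ZC3H7A and 3429 reads in 26 clusters for ZC3H7B, or 997 RPM (966 to 1030) and 1423 RPM (1376 to 1472). The log2 ratio was 0.36 (0.29 to 0.42). With distinct reads, 287 and 1205, it was 0.01 (-0.17 to 0.20), so AMD1 lay at the median gene by that count. By mean reads per cluster it was 1.27 (1.21 to 1.34), and AMD1 was then the only member called beyond 2-fold towards ZC3H7B. That call takes the numbers of clusters as fixed, although the ratio in clusters, -0.87, had a wide interval (-1.72 to -0.02).

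The reads of AMD1 were unevenly spread over its clusters, more so for ZC3H7B. The mean was 132 reads per cluster and the deposited median 40 there, a ratio of 3.30. Among 5452 genes with at least 5 clusters, 1.83% had a ratio at least as high, and the median gene stood at 1.39. For ZC3H7A the mean was 151 and the median 83, a ratio of 1.82 that 15.2% of 3456 genes reached. For ZC3H7B the mean of AMD1 thus stood further above its median than on most of these genes, which were not matched for number of clusters. The share of reads in its heaviest clusters was not computed, and their place in the transcript is not given.

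The aminopropyl transferases had few reads. SMS, spermine synthase, had 217 reads (20 distinct) for ZC3H7A and 44 reads (30 distinct) for ZC3H7B, with 5 clusters in each. Its log2 ratio of -1.81 (-2.31 to -1.34), or 3.50-fold higher for ZC3H7A, was the lowest of the members. With distinct reads it was -1.47 (-2.33 to -0.58), and the interval was no longer beyond 2-fold. SRM, spermidine synthase, had 1 cluster of 30 reads for ZC3H7A, made of 2 distinct reads, and the cluster lay in the 3' UTR. Absence of SRM from the ZC3H7B table means that no cluster was called, not that no read was present, and no ratio was computed. With a single cluster and 2 distinct reads, SRM had little support even for ZC3H7A.

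OAZ1 and OAZ2 encode antizymes, which bind ODC1, send it to the proteasome without ubiquitin and limit polyamine uptake. OAZ1 had 1324 reads in 10 clusters for ZC3H7A and 368 reads in 9 clusters for ZC3H7B. Its log2 ratio was -1.35 (-1.52 to -1.19), 2.56-fold higher for ZC3H7A. OAZ2 had 580 reads in 7 clusters and 475 reads in 11 clusters, with a log2 ratio of 0.20 (0.03 to 0.38).

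The antizyme genes therefore stood apart from each other, a comparison chosen after their values were seen. OAZ1 had 2.28 times the reads of OAZ2 for ZC3H7A and 0.775 times for ZC3H7B. This quotient needs no scaling between libraries and keeps each gene's length constant. It differed 2.95-fold, a log2 difference of -1.56 (-1.81 to -1.31). With distinct reads, 128 and 176 for OAZ1 against 39 and 257 for OAZ2, the difference was -2.26 (-2.89 to -1.65). In clusters it was -0.80 (-2.98 to 1.34), an interval that holds 0. The difference between the antizyme genes thus showed in reads and distinct reads, and could not be resolved in clusters.

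AZIN1 encodes the antizyme inhibitor, a relative of ODC1 without decarboxylase activity that binds antizyme in its place. It had 799 reads in 14 clusters for ZC3H7A and 1004 reads in 35 clusters for ZC3H7B. The log2 ratio, 0.82 (0.69 to 0.96), was the highest of the members and stayed inside 2-fold. It was 0.53 (0.18 to 0.88) with distinct reads, 81 and 485. In clusters, AZIN1 alone of the members had a log2 ratio above 0, at 0.40 (-0.53 to 1.40), an interval that holds 0. Set against ODC1, it differed by 0.43 (0.25 to 0.60) in reads and by 0.10 (-0.37 to 0.57) in distinct reads, so the decarboxylase and its relative were not separated by the latter.

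SAT1, the inducible spermidine/spermine N1-acetyltransferase, had the most reads of the list for ZC3H7A. It had 4932 reads in 11 clusters there and 1313 reads in 11 clusters for ZC3H7B, or 1305 RPM (1269 to 1342) and 545 RPM (516 to 575). Its log2 ratio was -1.42 (-1.51 to -1.33), 2.67-fold higher for ZC3H7A. With distinct reads, 319 and 571, it was -1.22 (-1.42 to -1.01), just beyond 2-fold. SAT1 clusters were heavy in both libraries, with a mean of 448 reads for ZC3H7A and 119 for ZC3H7B. By mean reads per cluster the ratio was -0.44 (-0.53 to -0.35), inside 2-fold.

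What is counted therefore bore on the calls. OAZ1 and SAT1 were beyond 2-fold with reads and with distinct reads, and neither was beyond it by mean reads per cluster or by clusters. By distinct reads 2 members were higher for ZC3H7A and 0 for ZC3H7B, against 10.1% and 7.28% of all genes. By mean reads per cluster these counts were 0 and 1, against 4.65% and 6.18%, and by clusters 0 and 0, against 0.223% and 0.321%. SMS was beyond 2-fold by reads alone of these counts. OAZ1 stood at -0.23 by mean reads per cluster and -1.08 (-2.55 to 0.38) by clusters. With so few clusters per gene, a missing call by clusters does not show that the ratio lay inside 2-fold. In clusters, 6 of the 7 members and 3581 of all 7168 genes had a log2 ratio below 0. Of the members, only AMD1 had an interval in clusters that did not hold 0.

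**Figure D2:**
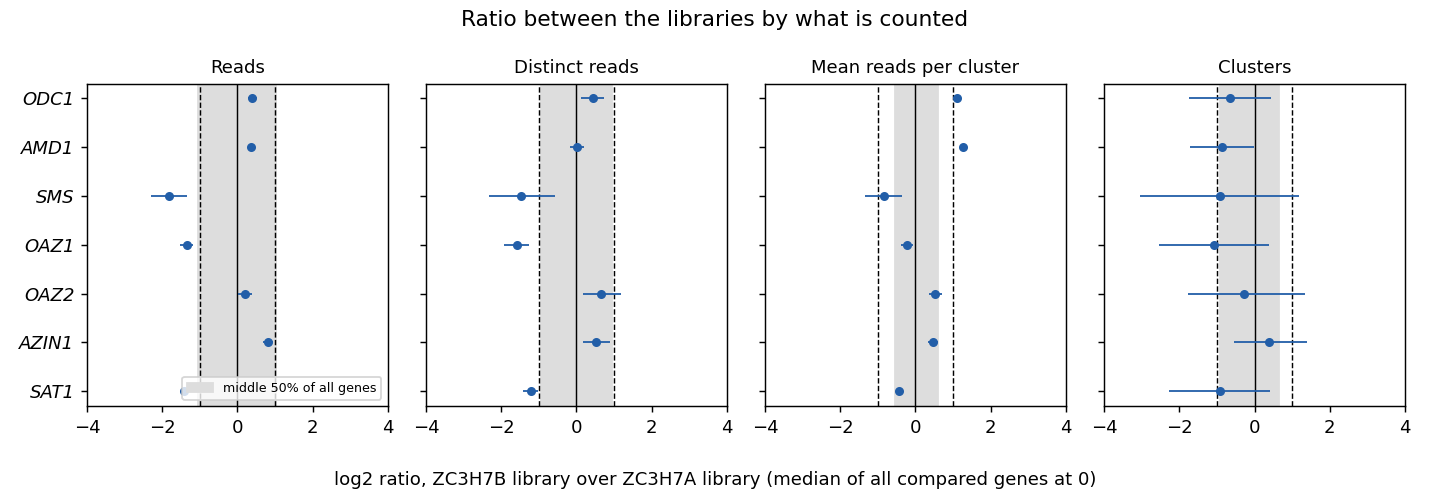
Log2 ratio of the ZC3H7B library over the ZC3H7A library for the 7 genes in both tables, by what was counted; bars are exact 95% counting intervals, dashed lines mark 2-fold and the grey band holds the middle 50% of all 7168 genes. SMS, OAZ1 and SAT1 stand left of the dashed line in the panel of reads, while AMD1 stands right of it by mean reads per cluster. Bars in that panel take the numbers of clusters as fixed.

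The place of the clusters differed from gene to gene. Of the 88 member clusters for ZC3H7A, 41 were coding, 46.6% (35.9 to 57.5%), and 28 lay in 3' UTRs, 31.8% (22.3 to 42.6%). Over all genes these shares were 42.7% and 39.8%. Of the 115 member clusters for ZC3H7B, 38 were coding, 33.0% (24.6 to 42.4%), and 48 lay in 3' UTRs, 41.7% (32.6 to 51.3%), against 29.6% and 55.8% over all genes. The pooled 3' UTR share of the members was thus below that of all genes for ZC3H7B. These intervals treat clusters of the same gene as independent, although AZIN1 held 35 and AMD1 26 of the 115. By gene, the share for ZC3H7B ran from 0% on SMS to 72.7% on OAZ2, so the interval does not separate the list from all genes. The pooled 3' UTR share rested in part on AMD1 for ZC3H7A, where it was 22.2% without that gene.

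AMD1 had almost the same layout in both libraries. Coding clusters numbered 7 of 25 and 7 of 26, and 3' UTR clusters 14 and 15, with 1 in the 5' UTR, 2 at the start codon and 1 at the stop codon in each. Over the 3175 genes with at least 5 clusters in both libraries, the median gene lost 10.4 percentage points of coding share from ZC3H7A to ZC3H7B, and AMD1 lost 1.08. A change as small or in the other direction was seen in 27.8% of these genes.

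ODC1 and AZIN1 were recovered mostly on coding sequence for ZC3H7A. ODC1 had 12 of 15 clusters there, 80.0% (51.9 to 95.7%), and 10 of 18 for ZC3H7B, 55.6% (30.8 to 78.5%). AZIN1 had 10 of 14, 71.4% (41.9 to 91.6%), and 14 of 35, 40.0% (23.9 to 57.9%). In the 3' UTR, AZIN1 had 1 of 14 clusters for ZC3H7A, 7.14% (0.181 to 33.9%), and 16 of 35 for ZC3H7B, 45.7% (28.8 to 63.4%). The gain of 38.6 points in 3' UTR share was reached by 9.35% of the 3175 genes. The intervals of the shares overlap, and the difference between them was not tested. Most of the extra AZIN1 clusters of the ZC3H7B library were thus 3' UTR clusters, while its coding clusters went from 10 to 14.

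The antizyme genes differed in layout in the same direction in both libraries, on few clusters and without a test of the difference. OAZ2 had 5 of 7 clusters in the 3' UTR for ZC3H7A and 8 of 11 for ZC3H7B, with 2 in coding sequence in each. These 3' UTR shares were 71.4% (29.0 to 96.3%) and 72.7% (39.0 to 94.0%), against 2 of 10 (2.52 to 55.6%) and 3 of 9 (7.49 to 70.1%) for OAZ1, and the intervals overlap in both libraries. OAZ1 had 4 coding clusters of 10 and 2 of 9, with 2 and 1 at the stop codon, and 1 in each library at the start codon. The frameshift site of antizyme lies inside the coding sequence, and the tables give no position that would show whether a cluster covers it. SMS had 3 of 5 clusters in coding sequence in both libraries.

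SAT1 had the most clusters without a named region of the members, 3 of 11 for ZC3H7A and 5 of 11 for ZC3H7B. It had 3 coding clusters for ZC3H7A and 0 for ZC3H7B, a share of 0% that allows up to 28.5%. The 3' UTR held 3 of 11 in both. Over all genes, clusters without a named region made up 4.87% and 5.21%. OAZ1 also had such clusters, 1 of 10 for ZC3H7A and 2 of 9 for ZC3H7B. For ZC3H7B so did ODC1, 3 of 18, and AZIN1, 1 of 35. Introns held 0 of the 88 member clusters for ZC3H7A (0 to 4.11%) and 2 of 115 for ZC3H7B, 1 each on ODC1 and SMS.

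**Figure D3:**
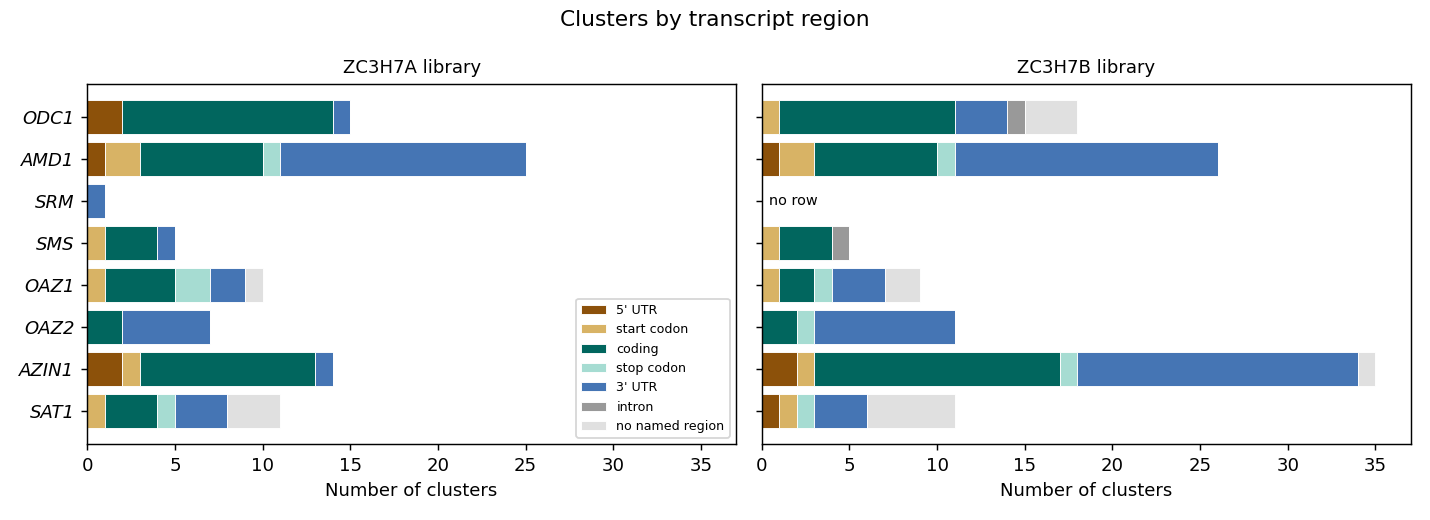
Number of clusters of each gene in each transcript region (horizontal axis), for the ZC3H7A library on the left and the ZC3H7B library on the right. AMD1 keeps its layout with 14 and 15 clusters in the 3' UTR, whereas AZIN1 has 1 and 16.

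Clusters at start codons were frequent on these genes, a region singled out after its values were seen. For ZC3H7A 6 of 88 member clusters lay there, 6.82% (2.54 to 14.3%), against 1.43% over all genes. For ZC3H7B 7 of 115 did, 6.09% (2.48 to 12.1%), against 0.645%. AMD1 had 2 start codon clusters in each library, and SMS, OAZ1, AZIN1 and SAT1 had 1 in each. ODC1 had 1 for ZC3H7B and 0 for ZC3H7A, and OAZ2 had none in either.

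By gene, 5 of 8 members had a start codon cluster for ZC3H7A and 6 of 7 for ZC3H7B. Such a cluster was present on 8.85% of all listed genes for ZC3H7A and on 6.69% for ZC3H7B. Among genes with at least 5 clusters the values were 16.2% and 10.1%. Genes with 5 or more clusters include every member but SRM. Of the further genes around the pathway described below, 5 of 23 had one for ZC3H7A and 1 of 22 for ZC3H7B. Transcript length, and number of clusters beyond the minimum of 5, were not taken into account in these shares. Stop codons held 4 of 88 and 5 of 115 member clusters, 4.55% (1.25 to 11.2%) and 4.35% (1.43 to 9.85%), against 1.46% and 1.85% over all genes. By gene, 3 of 8 and 5 of 7 members had a stop codon cluster, against 16.2% and 27.9% of genes with at least 5 clusters. The 5' UTR held 5.68% (1.87 to 12.8%) and 3.48% (0.956 to 8.67%) of member clusters, against 3.61% and 0.772% over all genes. Shares above those of all genes were thus not confined to start codons.

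Conversion of T to C, the mark of a crosslinked 4-thiouridine, was high on the members as on other genes. The tables give the converted share per cluster, so the share of all reads is not known. Each gene's mean over clusters, averaged over the members with weights by their reads, was 90.2% for ZC3H7A and 88.5% for ZC3H7B, against 92.0% and 89.2% over all genes. The mean over clusters ranged from 86.6% for SMS to 98.1% for OAZ2 for ZC3H7A, leaving aside the single cluster of SRM at 100%. For ZC3H7B it ranged from 86.5% for ODC1 to 89.1% for AMD1 and SAT1. Genes with few distinct reads reach 100% more easily, so well-covered genes make a closer background, and those with at least 100 distinct reads had a median of 91.9% for ZC3H7A and 89.6% for ZC3H7B. All 7 members in the ZC3H7B table lay below the latter, although SMS, with 30 distinct reads there, is not itself well covered.

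OAZ1 had 87.3% for ZC3H7A and 87.9% for ZC3H7B, where ODC1 and OAZ2 were lower. OAZ2 had 98.1% from 39 distinct reads for ZC3H7A and 87.6% from 257 for ZC3H7B. ODC1 had 92.6% and 86.5%. The 10th percentile of the well-covered genes was 87.6% for ZC3H7A and 86.2% for ZC3H7B, so OAZ1 lay just under that percentile for ZC3H7A, and ODC1 just above it for ZC3H7B.

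**Figure D4:**
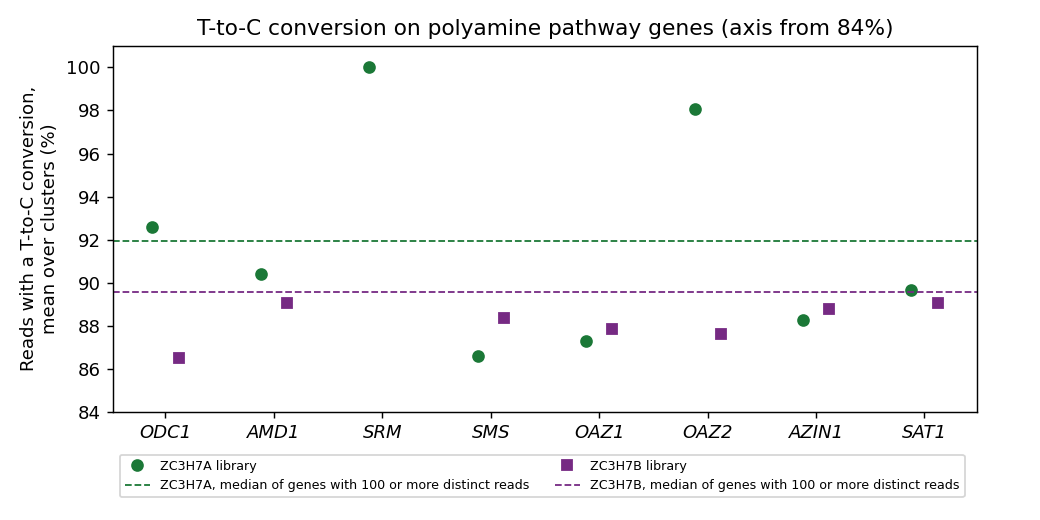
Share of converted (T-to-C) reads, averaged over the clusters of each gene (vertical axis in percent, starting at 84), with 1 point per library. Dashed lines give the median of genes with at least 100 distinct reads, 91.9% for ZC3H7A and 89.6% for ZC3H7B.

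Copies per distinct read on the members followed each library. They ranged from 9.86 on AZIN1 to 15.5 on SAT1 for ZC3H7A, and from 1.47 on SMS to 2.85 on AMD1 for ZC3H7B. In each library the gene with the most copies was thus one of those with the most reads, but copies did not follow reads throughout. For ZC3H7A, SRM (30 reads) had 15.0 copies and OAZ2 (580 reads) 14.9, both above AMD1 (3769 reads) at 13.1. The part of copy number in the read ratios was not tested beyond the ratios in distinct reads given above.

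Around the core pathway, 42 further genes of polyamine breakdown, methionine supply and salvage, arginine and ornithine use, hypusine formation and transport were followed, of which 24 had a row in a table and 21 could be compared. Of these, 6 were higher for ZC3H7A and 3 for ZC3H7B, with a median log2 ratio of -0.55, against 18.0% and 18.2% of all genes. With distinct reads the counts were 3 and 0, against 10.1% and 7.28% of all genes. As with the members, the counts are descriptions of these libraries.

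Of the 4 genes of arginine and ornithine use compared, 2 were higher for ZC3H7A and 0 for ZC3H7B, where 18.0% and 18.2% of all genes were. OAT, ornithine aminotransferase, had 3901 reads for ZC3H7A and 561 for ZC3H7B, a log2 ratio of -2.30 (-2.44 to -2.18), and -1.77 with distinct reads. PYCR1, a pyrroline-5-carboxylate reductase, stood at -2.62 (-3.67 to -1.71) on 95 and 11 reads. ALDH18A1, which makes pyrroline-5-carboxylate from glutamate, stood at -0.73 (-0.90 to -0.57) and its coding clusters numbered 15 of 20 and 14 of 19. Of OAT and PYCR1, only OAT stayed beyond 2-fold with distinct reads.

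Hypusine is made from spermidine on a single protein, the translation factor eIF5A. EIF5A had 1262 reads for ZC3H7A and 107 for ZC3H7B, a log2 ratio of -3.07 (-3.37 to -2.78), and its relative EIF5A2 had 358 and 60 reads, at -2.08 (-2.50 to -1.69). With distinct reads EIF5A stood at -2.78 (-3.27 to -2.30), and EIF5A2 at -1.64 with an interval no longer beyond 2-fold. EIF5A has near-identical copies in the genome, so its reads are uncertain between them.

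Of the 8 genes of methionine supply and salvage compared, 0 had a whole interval beyond 2-fold (18.0% and 18.2% of all genes did, towards ZC3H7A and ZC3H7B), and their log2 ratios ran from -1.48 to 0.07. MAT2A and MAT2B, the catalytic and regulatory subunits of the enzyme that makes S-adenosylmethionine, had 995 and 547 reads and 1337 and 998 reads, with log2 ratios of -0.37 (-0.52 to -0.22) and 0.07 (-0.05 to 0.19). AMD1, which uses their product, stood at 0.36 by the same measure. The median of the 8 genes was -0.50.

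Transport genes lay on both sides. Of the 6 compared, 1 was higher for ZC3H7A and 3 for ZC3H7B, where 18.0% and 18.2% of all genes were, and their median was 1.01. SLC7A1, an importer of arginine and ornithine, had 2782 reads in 52 clusters and 4409 reads in 56 clusters, a log2 ratio of 1.16 (1.09 to 1.23). With distinct reads it was 0.83 (0.65 to 1.01), inside 2-fold, and in clusters it turned to -0.82. SLC7A2, a related importer, stood at 0.87 (0.76 to 0.98). CAV1, a caveolar coat protein, had 67 and 262 reads, a log2 ratio of 2.46 (2.07 to 2.87), with all 13 of its ZC3H7B clusters in the 3' UTR, and SLC47A1, an efflux carrier, had 12 and 46 reads, at 2.43 (1.49 to 3.48). With distinct reads neither interval was beyond 2-fold. CAV1, on 9 and 137 distinct reads, then stood at 1.87 (0.91 to 3.03), and SLC47A1, on 2 and 16, at 0.94 (-1.14 to 4.11).

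SLC3A2, the heavy chain of amino acid exchangers, went the other way, with 1037 and 134 reads and a log2 ratio of -2.46 (-2.73 to -2.20). Its coding clusters numbered 17 of 21 and 9 of 10, and it had none in the 3' UTR. SAT2, a relative of SAT1, had 158 and 11 reads, at -3.35 (-4.38 to -2.47), or -2.38 with distinct reads (10 and 8) and an interval no longer beyond 2-fold. SAT2 and SAT1 thus both had more reads relative to the median gene for ZC3H7A, on very different depth.

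**Figure D5:**
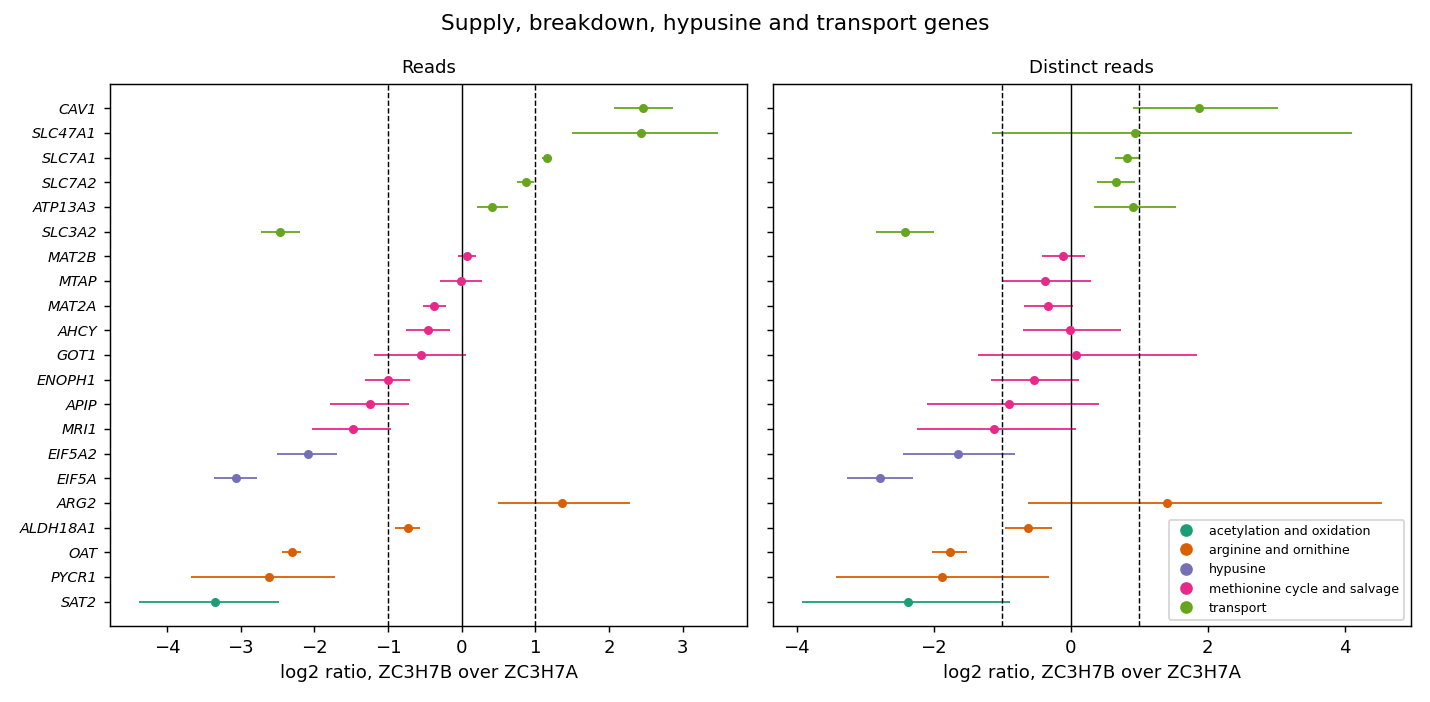
Log2 ratio of the ZC3H7B library over the ZC3H7A library for 21 genes around the core pathway, by reads on the left and distinct reads on the right; bars are exact 95% counting intervals, dashed lines mark 2-fold and colours give the role. EIF5A stands at -3.07 by reads and SLC7A1 at 1.16, and with distinct reads only OAT, EIF5A and SLC3A2 have whole intervals beyond 2-fold.

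The genes nearest to the members with the most reads were found by the distance in log2 RPM over the 2 libraries, which is a likeness of sums that are not per length. Nearest to AMD1 were TMED2 (3968 and 3389 reads), STC2 (3939 and 3299) and ZNF146 (4156 and 3789). Nearest to SAT1 were MBNL1 (4800 and 1369 reads), GSPT1 (5239 and 1284) and YWHAE (4589 and 1282). MBNL1 was close to SAT1 in reads and not in layout. It had 16 of 18 and 23 of 26 clusters in the 3' UTR, against 3 of 11 in both libraries for SAT1.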

How the data were processed

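PAR-CLIP tables of 1 library per protein were analysed, with groups taken from the sample titles. The build was hg19, and the tools named are STAR 2.5.2a, Bowtie and cutadapt, per the submitters' processing notes; a cluster caller is not given in the sources used here. Counts, as the authors deposited them, are clusters, reads and distinct reads per gene and clusters per region. The deposited fraction is the median share of converted reads per cluster. The deposited score columns are the sum of that share over clusters, used here for means, and the medians of reads per cluster. The exon column was read as coding sequence. Rows naming repeats, tRNAs or other RNA classes were left out (282 and 407 rows, 1.57% and 1.51% of reads). No other row began with a member's symbol.

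Ratios used genes with at least 20 reads summed, were scaled to the median gene and carry exact conditional 95% intervals for counting error. Shares carry exact Clopper-Pearson intervals, which for pooled clusters treat those of the same gene as independent. Without replicates no p-value was computed. All members were named, and of the wider list the genes beyond 2-fold and the 6 with the most reads; for the 2 members with the most reads, the 3 nearest genes. Names in the wider list were matched directly or through an older symbol in RefSeq's gene table. One gene of the wider list is not reported here and was left out of its counts. Members and lists were chosen with earlier results of these data known. The ratio step was tested on simulated independent counts without PCR copies, so the test does not check the intervals where such copies are present. The tools were scipy 1.17.1, numpy 2.4.6 and pandas 2.3.3 under Python 3.11.15, matplotlib 3.10.9 for figures, and edgeR 4.0.16 in R 4.3.3 for an alternative scaling. Alternatives changed the scaling, the count used, the minimum and the call rule.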

Additional observations from a re-analysis of the deposited data

How the results depend on the processing

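The counts of members beyond 2-fold (3 higher in the ZC3H7A library, 0 in the ZC3H7B library) were the same under TMM factors, total reads, the ratio itself, at least 100 reads and no minimum, and 2 and 0 with distinct reads. They were 0 and 1 by mean reads per cluster, and 0 and 0 by clusters and by distinct reads per cluster, an alternative added after seeing the data. In the wider list (6 and 3) they were 3 and 0 with distinct reads, 2 and 2 by mean reads per cluster, 0 and 0 by clusters, and 0 and 1 by distinct reads per cluster; SLC7A1 reversed to -0.82 by clusters. The causes were not tested. The share of gene reads on the members, 0.343% and 0.326%, was 0.328% and 0.275% in distinct reads and 0.170% and 0.115% in clusters. The 3' UTR share for ZC3H7A moved from 31.8% to 22.2% without AMD1, also added after seeing the data. Conversion for ZC3H7A was 98.0% as the median of the deposited medians. Scaling by total reads moved the median of all genes by 0.16. No paired analysis was possible because each protein has 1 library. Depth limits SRM, SMS and every ratio in clusters.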
